A study of Mus musculus with 2 samples.

Results

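Rfx6 peaks in a mouse β cell line were often close neighbours of other Rfx6 peaks, and the genomic stretches in which they were densest are described here. Neighbouring peak summits at most 12500 bp apart were joined, and all peaks of a joined group with at least 5 peaks were taken as members. The members were thus chosen by summit position only, from the same list in which they are described, so their number and spacing are a description and carry no test. In all, 2515 of 23308 peaks (10.8%) fell into 396 such clusters, and 2 clusters with 14 peaks on Rfx6 itself, the gene carried by the transfected plasmid, were left out. Min6b1 cells, an insulin-secreting mouse line grown in 25 mM glucose, were transfected with 24 µg of the plasmid pCMV-Tag2A-3HA-Rfx6 with Lipofectamine 2000 and collected after 2 days. The tagged protein was immunoprecipitated with the anti-HA antibody 12CA5 and the bound DNA was sequenced. The control was an anti-HA ChIP of Min6b1 cells. Its cell type label names no transfection, whereas its growth text repeats that of the 3HA-Rfx6 cells, so what these cells received is not settled by the labels. The labels name a pancreatic beta cell line, a label that ChIP-seq peaks of a tagged protein cannot check against marker expression. The tagged protein came from a CMV promoter in a transient transfection and is not the endogenous Rfx6 of the cells. There was 1 library per condition and therefore no replicate error for any value below.

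Rfx6 is a winged-helix transcription factor required for the formation and function of pancreatic islet cells, including insulin-secreting β cells. Proteins of the RFX family bind the X-box, a pair of inverted half-sites of the form GTTGCC or GTTACC separated by a short spacer. Other RFX proteins, Rfx2 among them, are known for switching on genes of the cilium through the same kind of element. Runs of closely spaced binding sites are a known feature of the regulatory DNA of genes that are important to a cell type.

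X-boxes in clusters are shown first, in lower case with the X-box itself in capitals, because they are the element through which the RFX family binds. The strict X-box searched here allows some variation of these half-sites, namely GTNGCC or GTNACC, a spacer of 0 to 3 bases, and then GGCAAC or GGTAAC, in which the first G may also be A, on either strand of the 200 bases centred on a summit. Coordinates are those of NCBIM37 (mm9), and each sequence is written 5′ to 3′ on the strand given. Rfx2, which encodes another RFX factor, had a cluster of 5 peaks with X-boxes at chr17:56953926-56953940 (minus strand) and chr17:56949896-56949908 (plus strand). The interval between Med25, a subunit of the Mediator complex, and Fuz, a gene needed for making cilia, held X-boxes at chr7:52148214-52148226 and chr7:52151122-52151134, both on the minus strand. Ptpre, a receptor-type tyrosine phosphatase, had the most peaks with a strict X-box of any cluster. Its 3 X-boxes were at chr7:142788588-142788601 (minus strand), chr7:142806861-142806873 and chr7:142809709-142809722 (plus strand). The last sequence is that of the peak with the second highest fold enrichment shown here, in intron 3 of E030010N08Rik at chr1:95117548-95117561 (minus strand).
Rfx2, 469 reads: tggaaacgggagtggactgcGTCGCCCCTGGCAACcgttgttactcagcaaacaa
Rfx2, 195 reads: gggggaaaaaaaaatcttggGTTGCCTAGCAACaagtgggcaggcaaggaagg
Med25, 258 reads: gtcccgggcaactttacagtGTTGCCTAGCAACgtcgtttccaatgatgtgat
Med25, 105 reads: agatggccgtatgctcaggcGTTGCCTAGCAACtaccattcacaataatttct
Ptpre, 71 reads: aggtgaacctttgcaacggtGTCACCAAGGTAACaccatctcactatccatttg
Ptpre, 43 reads: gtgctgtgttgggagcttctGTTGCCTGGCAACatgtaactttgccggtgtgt
Ptpre, 113 reads: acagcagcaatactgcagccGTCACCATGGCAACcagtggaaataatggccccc
E030010N08Rik, 491 reads: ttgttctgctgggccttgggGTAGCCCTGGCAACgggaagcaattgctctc

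The sequence GTTGCCTAGCAAC occurred in both Med25 peaks and in the second Rfx2 peak. It was the most frequent strict X-box of the clusters, with 11 of 115 (9.57%, 95% Wilson interval 5.43 to 16.3%), against 84 of 1382 (6.08%, 4.94 to 7.46%) in the peaks outside them. Wilson intervals given here cover counting error only, and peaks of 1 cluster share their locus. The 115 X-boxes had 80 different sequences, and in 64 cases the distance to the summit was at most 25 bp. The spacer was 1 base in 53 and 2 bases in 53 of them.

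A related set is shown next because X-boxes in different clusters also shared the sequence around them. Among the 115 X-boxes, 6 pairs had a run of at least 12 bases in common within the 20 bases on either side, and these pairs involved 5 X-boxes in 5 clusters on different chromosomes, chosen after their values were seen. They were in the clusters on Fyn, a tyrosine kinase (chr10:39275183-39275195), near Gm347 (chr2:28335448-28335460), near Myo18b, an unconventional myosin (chr5:113074709-113074721), near 1200009I06Rik (chr12:112672553-112672565), and on Anxa6, a calcium-dependent phospholipid-binding protein (chr11:54838129-54838141). All are written on the plus strand, on which the X-box of Anxa6 is the reverse complement of the one in 3 of the others.
Fyn: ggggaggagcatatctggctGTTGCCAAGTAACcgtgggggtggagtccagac
Gm347: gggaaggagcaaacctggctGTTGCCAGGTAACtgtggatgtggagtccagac
near Myo18b: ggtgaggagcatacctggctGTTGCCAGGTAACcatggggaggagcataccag
1200009I06Rik: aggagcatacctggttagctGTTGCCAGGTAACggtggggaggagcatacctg
Anxa6: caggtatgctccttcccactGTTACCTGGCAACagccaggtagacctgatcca
The Myo18b peak had 258 reads and a fold enrichment of 42.8. The 1200009I06Rik peak had 188 reads, the Fyn peak 136, the Gm347 peak 108 and the Anxa6 peak 88.

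The cluster on Ulk4, a kinase of the Unc51-like family, was of another kind, since its peaks shared sequence with each other. It held 11 peaks in 22.1 kb (chr9:121128719-121150771), all in intron 17 of 37 exons, and was the densest of all clusters with 4.99 peaks per 10 kb. The 200-base windows of 10 of the 11 summits each shared runs of at least 25 bases with 9 others, which made 45 pairs. The run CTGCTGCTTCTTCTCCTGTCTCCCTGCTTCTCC, 33 bases long, was found on the minus strand in 8 of the windows, and 4 copies are shown with it in capitals.
chr9:121130497-121130529: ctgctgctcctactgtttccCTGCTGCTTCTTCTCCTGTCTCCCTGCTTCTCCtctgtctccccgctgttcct
chr9:121135667-121135699: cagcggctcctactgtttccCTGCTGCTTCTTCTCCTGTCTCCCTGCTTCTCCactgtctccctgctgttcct
chr9:121142222-121142254: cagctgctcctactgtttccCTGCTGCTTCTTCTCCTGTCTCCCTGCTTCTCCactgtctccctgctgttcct
chr9:121147692-121147724: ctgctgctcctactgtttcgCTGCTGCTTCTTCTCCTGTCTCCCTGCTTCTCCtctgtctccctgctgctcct
In order along the chromosome, the 11 peaks had 130, 78, 155, 45, 38, 73, 63, 101, 65, 504 and 82 reads. The peak of 504 reads, the fourth copy shown, stood well above the others. The summit window at the end of the row, with 82 reads, shared no such run. No Ulk4 window held a strict X-box. Reads that map to several copies cannot be assigned to 1 of them, and the setting used for such reads is not given in the sources used here. Over all clusters, 46 of 7582 pairs of summit windows within a cluster shared a run of 25 bases. The remaining pair was in the cluster near Myo18b.

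Most clusters were small. The median was 6 peaks, and 179 clusters had exactly 5, the number at which the rule begins. These had a median of 536 summed reads and 87 reads per peak, against 411.5 summed reads and 83 reads per peak in the 372 groups of exactly 4 peaks that just missed it. Clusters spanned 10.2 to 102 kb with a median of 28.8 kb and together covered 12.3 Mb, or 0.465% of chromosomes 1 to 19 and X. Summits of neighbouring members were a median of 4.84 kb apart, and 26.1 kb separated neighbouring summits over the whole list. Summed reads ranged from 266 to 2747 with a median of 639.5. Strongest peaks of clusters held a median of 212.5 reads and 32.0% of the reads of their cluster. Such a peak is the highest of at least 5 values, so both numbers are high by construction. Whether they exceed those of randomly drawn groups of peaks was not tested. In 83 of the 396 clusters the strongest peak had at least 2 times the reads of the next peak.

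**Figure D1:**
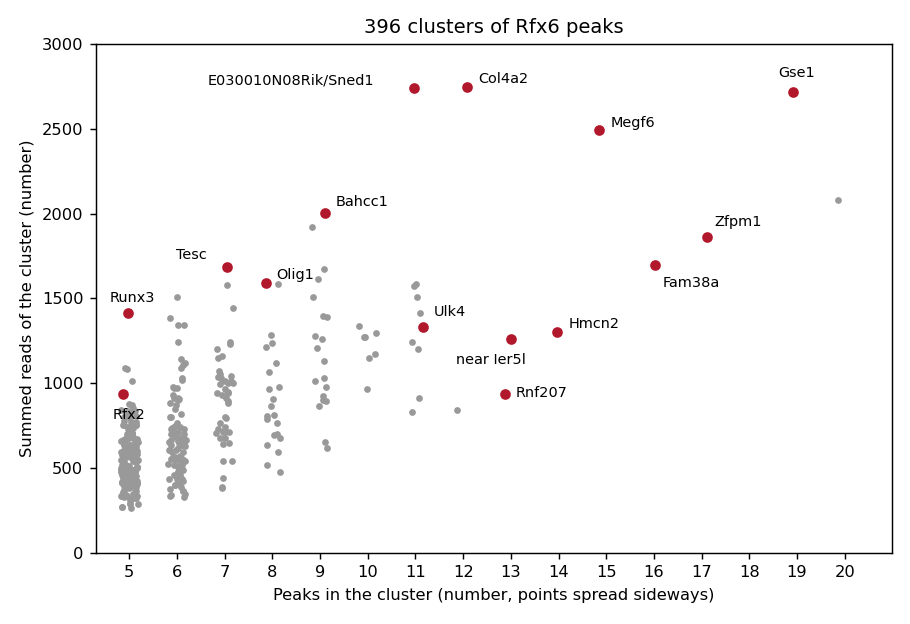
Each point is 1 of the 396 clusters, with its number of peaks on the horizontal axis (points moved sideways for visibility) and the summed reads of its peaks on the vertical axis; red points are named. Col4a2 (2747), E030010N08Rik/Sned1 (2740) and Gse1 (2718) have the most reads, and of the named clusters Gse1 (19) and Zfpm1 (17) have the most peaks.

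Gse1 and Zfpm1 were among the genes whose clusters had the most peaks. Gse1, a coiled-coil protein, had 19 peaks over 79.6 kb (chr8:123010548-123090173) with 2718 reads. In this cluster 15 peaks had their summit in intron 1 of 16 exons, and the strongest, with 359 reads, lay 633 bp from a start. The 2 Gse1 peaks with a strict X-box were weak, with 55 and 36 reads. Zfpm1, a partner protein of GATA factors also called FOG1, had 17 peaks over 101 kb (chr8:124726609-124827629), of which 3 were in its own intron 1. The strongest, with 438 reads, was in the single exon of Gm22, upstream of Zfpm1.

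The clusters on Fam38a, Megf6 and Hmcn2 followed in number of peaks. Fam38a, which encodes the mechanically gated channel Piezo1, had 16 peaks (chr8:124989246-125075803) with 32 to 271 reads. In it 10 summits were in intron 1 of Fam38a, and 2 of the 16 held a strict X-box, with 82 and 143 reads. Megf6, a protein with many EGF-like repeats, had 15 peaks over 51.1 kb (chr4:153575768-153626886), all inside the gene between intron 3 and exon 9 of 37. Their reads ranged from 36 to 563 and summed to 2490. Hmcn2, an extracellular matrix protein of the hemicentin family, had 14 peaks (chr2:31151862-31209701) with 47 to 185 reads, 8 of them upstream of the gene. Here the strongest peak, in exon 11 of 98, was also the only one with a strict X-box.

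The cluster around Ier5l, a gene of the immediate early response family, had 13 peaks (chr2:30321943-30391089), and no summit lay in a gene or within 1 kb of a start. The strongest, with 490 reads, was 1781 bp from the start of Ier5l, and the other 12 had 39 to 114 reads. Camta1, a calmodulin-binding transcription activator, had 11 peaks (chr4:150501327-150554000) with 56 to 386 reads between introns 6 and 11. Tekt4, a tektin of cilia and flagella, had a cluster of 11 peaks (chr17:25571220-25626386), with 2 summits in the gene and 9 between genes. Its peak at the start, 6 bp from it, had 211 reads and a fold enrichment of 37.2, while 2 peaks downstream had 313 and 340 reads. Dgkz, diacylglycerol kinase zeta, shared a cluster of 11 peaks (chr2:91753209-91806358) with Ambra1, Chrm4 and Mdk. The strongest peak of that cluster had 341 reads and a fold enrichment of 57.0.

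Further clusters had many reads or short spans. The strongest peak held a median of 32.0% of the reads over all clusters. Its share was 20.1% for E030010N08Rik, 31.6% for Bahcc1, 27.1% for Hr, 19.4% for Shb and 20.3% for Wdr25. Tesc and Col2a1 (36.05%) were above the median. The cluster of E030010N08Rik and Sned1, a matrix protein with nidogen and sushi domains, had 11 peaks and 2740 reads (chr1:95079329-95135574). In order, the peaks had 101, 182, 53, 432, 44, 491, 413, 550, 48, 264 and 162 reads, so that 4 of them exceeded 400. The X-box peak printed above is the one with 491 reads and a fold enrichment of 62.6. Bahcc1, a protein with a BAH domain, had 9 peaks (chr11:120115934-120156912) with 35 to 633 reads. The cluster of Hr, the hairless corepressor, with Bmp1, Sftpc, Lgi3 and Reep4, had 9 peaks (chr14:70920013-70963720). Its strongest, with 521 and 465 reads, were both between Lgi3 and Reep4. Tesc, a calcium-binding protein, had a peak of 797 reads 467 bp upstream of its start, which made up 47.2% of a 7-peak cluster (chr5:118455041-118494554). Shb, an SH2-domain adaptor, had 9 peaks in 20.8 kb (chr4:45487264-45508075), with 67 to 313 reads and no strict X-box. Short clusters were also found on Wdr25, a WD-repeat gene, and on a cartilage collagen gene. Wdr25 had 7 peaks in 14.6 kb of intron 2 (chr12:110143464-110158023) with 48 to 145 reads, of which the peak of 128 reads held a strict X-box. Col2a1, the main collagen of cartilage, had 6 peaks in 13.8 kb (chr15:97809743-97823505) with 62 to 367 reads.

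**Figure D2:**
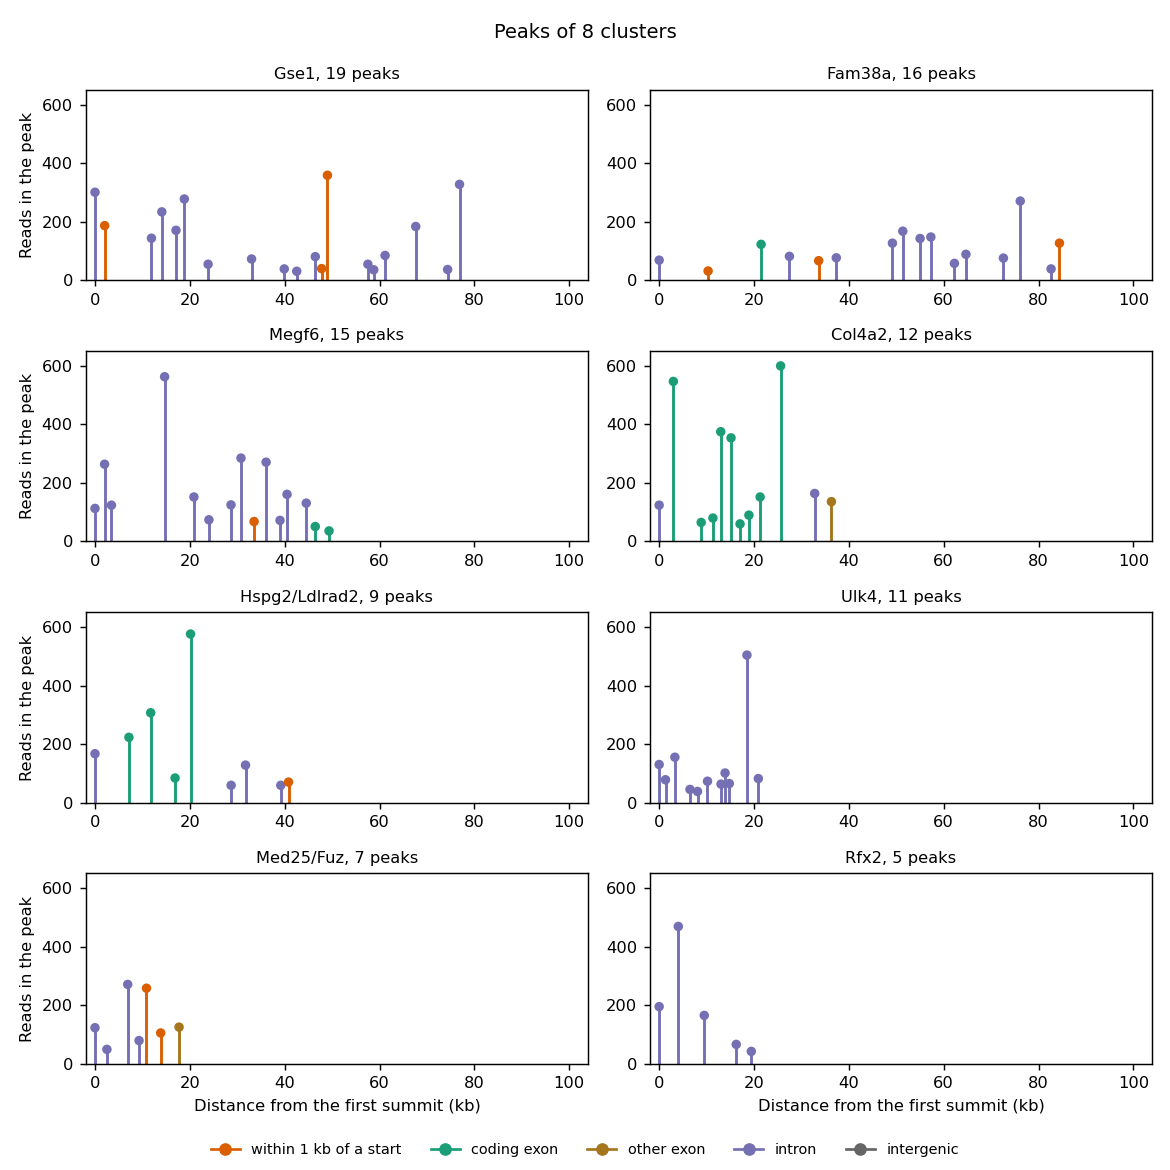
Peaks of 8 clusters are drawn at the distance of their summits from the first summit (horizontal axis, kb), with the reads in each peak as height and the position class as colour. Coding exon peaks reach 600 reads in the Col4a2 cluster, whereas the peaks of Fam38a stay at or under 271 reads and the Ulk4 cluster has a single peak above 155.

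The cluster with the most reads was on Col4a2, which encodes a chain of collagen IV of basement membranes. It had 12 peaks and 2747 reads in 37.7 kb (chr8:11411698-11449382), and 9 of the 12 summits were in coding exons. In order, the peaks had 124, 547, 65, 80, 375, 354, 60, 90, 152, 600, 164 and 136 reads, and those from the second to the tenth were the coding ones, in exons 19 to 34 of 48. The 4 highest values, 354 to 600 reads, were all in coding exons. The windows of both strongest peaks are printed with coding bases in capitals, because a summit in a coding exon is uncommon in this list. They are the plus strand of chr8:11437944-11438143 at exon 34 and of chr8:11415325-11415524 at exon 19.
Col4a2 exon 34, 600 reads: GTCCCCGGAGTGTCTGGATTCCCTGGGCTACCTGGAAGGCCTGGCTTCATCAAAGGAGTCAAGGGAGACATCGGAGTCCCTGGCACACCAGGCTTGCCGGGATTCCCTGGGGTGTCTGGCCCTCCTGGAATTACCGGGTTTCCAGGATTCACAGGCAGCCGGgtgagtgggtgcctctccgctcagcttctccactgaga
Col4a2 exon 19, 547 reads: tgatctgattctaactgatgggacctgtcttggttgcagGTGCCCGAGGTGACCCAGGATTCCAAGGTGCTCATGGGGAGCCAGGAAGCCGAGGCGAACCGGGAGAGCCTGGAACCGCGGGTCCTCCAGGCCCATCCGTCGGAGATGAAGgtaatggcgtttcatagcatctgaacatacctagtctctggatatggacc
The first window held 162 coding bases of its 200 and the second 111. Neither held a strict X-box, nor did any of the other 10 windows of the cluster. The GC content of the windows was 61.5% and 57.0%.

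Coding exon summits were also frequent on 2 related matrix genes. Hspg2 encodes perlecan, a basement membrane proteoglycan, and had 2 clusters. The one of 9 peaks (chr4:137088716-137130845) included 4 coding exon summits with 223, 307, 84 and 576 reads in exons 50, 60, 67 and 74 of 97. The one of 6 peaks (chr4:137039656-137078516) had 1, with 58 reads in exon 14, and its strongest peak of 607 reads was in intron 25. Col4a1, the partner chain of Col4a2, had 10 peaks (chr8:11171771-11239778) with 44 to 249 reads, of which 3 were in coding exons. Over all clusters, 197 summits (7.83%, 6.85 to 8.95%) were in coding exons, against 6.97% (6.64 to 7.33%) of the other peaks. With promoters counted first, the shares were 5.61% (4.77 to 6.58%) and 3.06% (2.83 to 3.30%). The 266 clusters without any coding summit were the majority, and 16 clusters with at least 3 held 56 of the 197.

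Gene by gene, 571 of the 22367 protein-coding genes of GENCODE M1 were overlapped by a cluster, which is 2.55% of all and the background for the lists of genes examined. Overlapped genes had a median length of 21.1 kb, and the others 15.3 kb. Of 20 basement membrane genes, 3 were overlapped (15.0%), Col4a1, Col4a2 and Hspg2, and Lama1, a laminin chain, was in a group of 4 peaks. Of 9 RFX genes other than Rfx6, with the complex subunits Rfxap and Rfxank counted in, 2 were (22.2%), Rfx1 and Rfx2. Of 40 islet transcription factors, 1 was (2.50%), Tle3, a Groucho-type corepressor, and Pax6 was in a group of 4. Of 45 genes of insulin secretion, 1 was (2.22%), Chga, the granule protein chromogranin A, and Abcc8 and Ptprn2 were in groups of 4. The islet and secretion shares were thus near the background, and the basement membrane and RFX shares, above it, rest on 3 and 2 genes. Col4a1 and Col4a2 adjoin each other on chromosome 8. The lists were chosen with earlier results of these data known, so the shares are a description and carry no test.

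None of 11 genes disallowed in β cells, 38 annotated cilium genes of 40, or 29 genes of TGF-β and SMAD signalling was overlapped by a cluster. With a background of 2.55%, lists this short cannot tell none from the background. Smad3, which is on the first and the last of these lists, had 7 summits in the gene, in groups of at most 3. Ski was in a group of 4, as were the cilium genes Ift27 and Kif17. Fuz and Tekt4, which were overlapped by clusters, were not on the cilium list. Counting every peak, cluster members included, 7011 of the 22367 protein-coding genes (31.3%) had any peak summit inside the gene. The share was 22 of 40 for the islet factors (55%), 27 of 45 for the secretion genes (60%), 5 of 11 for the disallowed genes (45.5%), 7 of 9 for the RFX genes (77.8%), 19 of 38 for the cilium genes (50.0%), 15 of 20 for the basement membrane genes (75%) and 17 of 29 for the TGF-β and SMAD genes (58.6%). The genes were not matched for length, which sets how many summits a gene can hold by position alone. Acot7, an acyl-CoA thioesterase that is also described as disallowed in β cells, was not on the list of 11. It lay at the edge of a cluster of 13 peaks with Gpr153, Hes3, Icmt, Rnf207 and Rpl22 (chr4:151641562-151700605). These peaks had a median of 61 reads, and 6 summits were within 1 kb of a start. The strongest, in an Acot7 intron, had 190 reads, above the limit of 182 for the 10% of peaks with the most reads.

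The 5 peaks of Rfx2 were all in intron 1 (chr17:56949219-56969776). In order along the chromosome they had 195, 469, 165, 66 and 42 reads. The peaks with the printed X-boxes were those of 195 and 469 reads, and their X-boxes were 0 and 1 bp from the summit. The peak of 469 reads had a fold enrichment of 70.4, which is the highest of all 2515 member peaks. The Rfx1 cluster of 6 peaks (chr8:86559551-86598270) had 54 to 195 reads and no strict X-box. Its only summit inside Rfx1, in exon 2 of 21, was the weakest with 54 reads, and a peak of 78 reads had its summit 2 bp from the start of Rfx1.

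On Chga, 3 summits lay in the gene, with 96 reads 152 bp from the start, 211 reads in intron 2 and 160 reads in intron 4. The peak in intron 4 held a strict X-box, 85 bp from the summit. The other 8 peaks of this cluster (chr12:103789240-103847865) were outside Chga, 6 of them in introns of Itpk1, an inositol phosphate kinase, where the strongest had 340 reads. The 7 peaks of Tle3 (chr9:61213646-61249321) had 47 to 226 reads, the strongest in intron 4, and no strict X-box. In the Med25 and Fuz cluster (chr7:52136477-52155606), the peaks had 123, 49, 271, 79, 258, 105 and 125 reads. The X-box peak of 258 reads was 398 bp from the start of Med25 and that of 105 reads was 276 bp from the start of Fuz.

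Some genes held several clusters. The genes and clusters in this paragraph, and the collagen count, were chosen after their values were seen. Rbfox3, the neuronal splicing factor known as NeuN, had 30 member summits, the most of any gene other than the gene model Gm20388 described below, in 5 clusters over a gene of 421.8 kb. All 30 were intronic, none held a strict X-box, and their 4033 reads included peaks of 600, 470 and 435. Col5a1, a fibrillar collagen chain, had 18 in 2 clusters of 9 peaks, with 1260 and 863 summed reads. Of 43 collagen chain genes annotated, 4 (9.30%) were overlapped by a cluster. The strongest single peak of any cluster had 912 reads and a fold enrichment of 49.0, 583 bp from a start of Olig1, a transcription factor of oligodendrocytes, and its 7 neighbours had 54 to 186 reads. Runx3, a transcription factor of the Runt family, had the most reads of any 5-peak cluster (1413), with 137, 94, 234, 469 and 479 reads in order. The cluster around Cd151, a tetraspanin, was the opposite in layout, as 10 of its 11 summits were within 1 kb of a start, in a stretch that overlapped 8 genes. In all, 140 genes had at least 5 member summits, Gm20388 not counted. Another long gene model, Fgfr2 (3009 kb, 10 member summits), was counted, as was Ctbp2, which it overlaps.

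The position of member summits differed from that of the other peaks. Introns held 49.7% of them (47.8 to 51.7%), against 36.5% (35.9 to 37.2%) of the other peaks. Within 1 kb of a protein-coding start, the shares were 14.3% (13.0 to 15.7%) and 21.9% (21.3 to 22.4%), and between genes they were 27.5% (25.8 to 29.3%) and 36.7% (36.1 to 37.4%). Within 5 kb of a start, 31.9% and 34.3% were found. Intronic summits made up 33.3% of the peaks that stood alone and 54.0% of those in clusters of at least 8. The long gene model Gm20388 (4435 kb on chromosome 8) held 130 member summits and overlapped 16 clusters, the Gse1, Zfpm1 and Fam38a clusters among them, and overlapped 6 clusters as the only gene. Without it, 46.8% of member summits were intronic and 30.5% intergenic, against 36.1% and 37.2% of the other peaks.

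Most clusters were on 1 or a few genes. Of the 396 clusters, 215 overlapped 1 gene, 83 overlapped 2, 61 overlapped at least 3 and 37 overlapped none, and 113 had every summit inside a single gene. There were 171 clusters without a summit within 1 kb of a start, and 147 contained no start at all. The strongest peak of the cluster was in an intron in 45.5% of clusters, between genes in 25.8% and within 1 kb of a start in 18.9%.

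**Figure D3:**
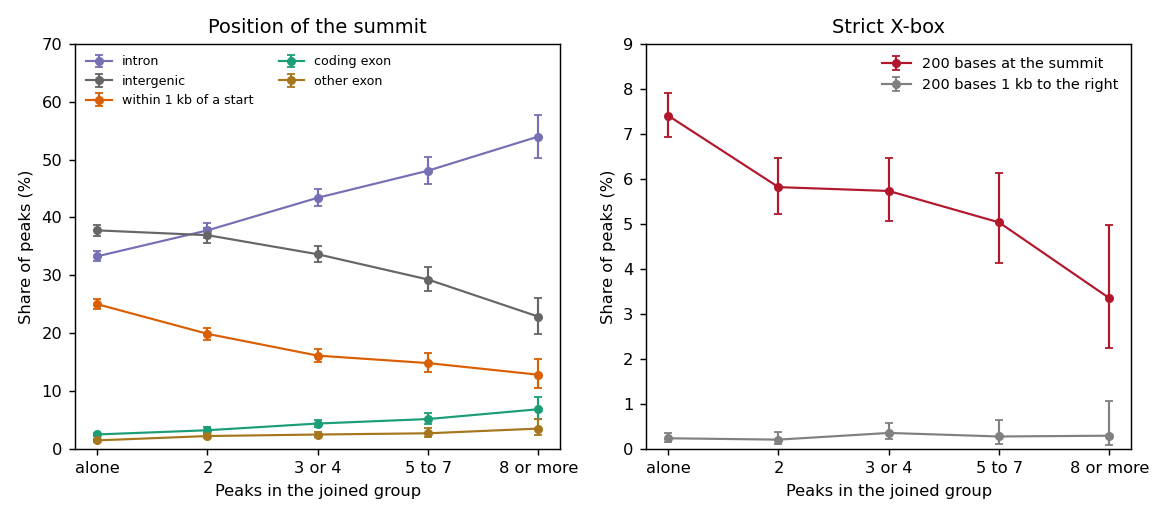
Left, share of peaks (%) in each position class, and right, share with a strict X-box in the 200 bases at the summit (red) and in 200 bases 1 kb to the right (grey), both by the number of peaks in the joined group. Bars are 95% Wilson intervals. Intronic shares go from 33.3% for peaks alone to 54.0% in clusters of 8 or more, and X-box shares from 7.41% to 3.35%.

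Member peaks had somewhat more reads and fewer X-boxes than the rest. The median was 85 reads (quartiles 56 and 145) against 71 (50 and 112), and median fold enrichments were 9.18 and 8.47. Of the members, 16.7% (15.3 to 18.3%) were among the 10% of peaks with the most reads, as were 9.29% (8.90 to 9.69%) of the other peaks. Both measures rose with group size among the other peaks as well. Peaks alone had a share of 7.36% and a median of 68 reads, and groups of 3 or 4 had 13.55% (12.56 to 14.62%) and 79 reads. A strict X-box was found in 115 members (4.57%, 3.82 to 5.46%), against 6.65% (6.32 to 7.00%) of the other peaks. Among the other peaks, the share was 7.41% for peaks alone and 5.82% (5.22 to 6.47%) in groups of 2. In groups of 3 or 4 it was 5.73% (5.07 to 6.47%), and the intervals of both kinds of group overlapped that of the members. At 1 kb to the right of the summits, the shares were 0.278% for members and 0.250% for all other peaks, so strict X-boxes were concentrated at the summits in both sets. The half-sites GTTGCC and GTTACC were found in 32.3% (30.5 to 34.1%) of members and 36.1% (35.5 to 36.8%) of the others, against 10.3% and 10.7% 1 kb to the right. A relaxed X-box, which allows more letters at most positions, was found in 42.2% and 46.3%, against 21.5% and 23.0% at 1 kb to the right.

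Within clusters, the strongest peak held a strict X-box in 27 of 396 cases (6.82%, 4.73 to 9.74%), and the other members did in 88 of 2119 (4.15%, 3.38 to 5.09%). Member peaks with a strict X-box had a median of 112 reads, and those without had 85. Of the clusters, 297 had no peak with a strict X-box, 84 had 1, 14 had 2, and Ptpre had 3. By position, the X-box shares of members and other peaks were closest within 1 kb of a start, with 5.57% (3.64 to 8.45%) and 5.77% (5.13 to 6.49%). In introns they were 4.48% (3.47 to 5.77%) and 6.56% (6.03 to 7.14%). Only 1 of 141 members classed as coding exon held a strict X-box (0.709%, 0.125 to 3.91%), compared with 18 of 635 other peaks (2.83%).

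Of the other motifs, the E-box was found in more members than other peaks and the homeodomain motif in fewer. The E-box CAGATG, bound by NeuroD1 and its relatives, was found in 18.7% (17.2 to 20.3%) of members and 15.8% (15.3 to 16.3%) of other peaks. At 1 kb to the right it was found in 17.3% and 15.4%, a difference in the same direction. The forkhead motif (TGTTTAC or TGTTTGC) was found in 5.17% and 6.31%, the homeodomain motif TAATTA in 1.43% (1.04 to 1.98%) and 2.08% (1.89 to 2.28%), with overlapping intervals and the same order at 1 kb to the right (3.14% and 4.69%), and the MAF half-site TGCTGAC in 4.14% and 4.16%. Shares for the motifs of AP-1 (TGACTCA or TGAGTCA) were 4.02% and 4.13%, and for NF-Y (CCAATCA or CCAATGA) they were 2.98% and 3.21%. The CTCF core motif was found in 0.875% and 0.727%, the SP/KLF motif GGGGCGGGG in 0.994% and 1.32%, the ETS motif CCGGAAGT in 0.398% and 0.534%, the CRE (TGACGTCA or TGACGCAA) in 0.278% and 0.428%, and the NRF1 motif in 0.0795% and 0.0674%. All were searched on both strands. These motifs occur by chance, and a match is not evidence of a bound factor.

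The clusters lay in GC-rich DNA. In the 20 kb around a member summit the median GC content was 51.3% (quartiles 49.6 and 53.1%), against 46.7% (43.9 and 49.6%) for the other peaks and 45.2% for peaks that stood alone. In the 200 bases at the summit the medians were closer, 55.5% and 54.0%. X-box shares varied with GC as well. Below 45% GC at the summit, strict X-boxes were found in 2 of 39 members (5.13%, 1.42 to 16.9%) and 9.87% (8.46 to 11.5%) of other peaks. Between 55 and 65% GC they were found in 3.27% (2.41 to 4.42%) of members and 5.92% (5.37 to 6.53%) of other peaks, and between 45 and 55% GC in 6.01% (4.73 to 7.62%) and 7.48% (6.98 to 8.01%). At 65% GC and above the order was the opposite, with 10 of 203 members (4.93%, 2.70 to 8.83%) and 3.56% (2.93 to 4.32%) of other peaks, and the intervals overlapped. Members were also nearer to the distal ends of chromosomes, with 25.7% (24.0 to 27.4%) within 10 Mb of it against 13.0%. The part of regional GC content, gene density or sequencing coverage in the clustering was not tested.

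Chromosome 11 had the most clusters, 59, which is 48.4 per 100 Mb, and chromosomes 2 and 4 had 48 and 44. Chromosomes 3 and 13 had 5 each, and chromosome 18 had 3. Chromosome X had none among its 174 peaks. Chromosome 11 also had the highest density of all peaks (15.9 per Mb) and the highest GC content (43.8%), and X the lowest of both (1.04 per Mb and 39.3%).

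**Figure D4:**
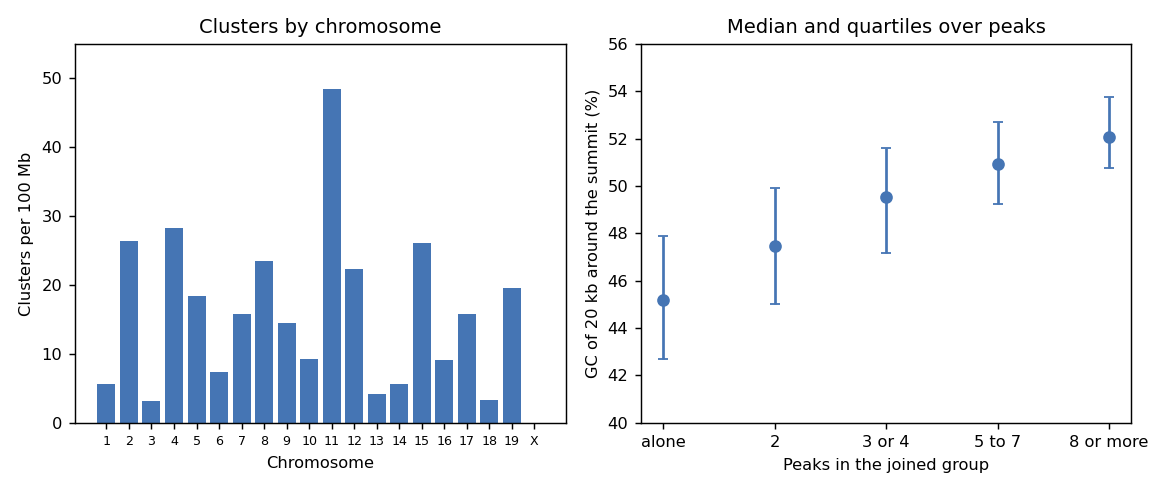
Left, number of clusters per 100 Mb on each chromosome (bars from 0). Right, GC content of the 20 kb around a summit (%, axis from 40 to 56), with points for the median and bars for the quartiles over peaks, by the number of peaks in the joined group. Chromosome 11 stands highest at 48.4, X has none, and median GC goes from 45.2% for peaks alone to 52.1% in clusters of 8 or more.

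How far the clusters depend on weak peaks and on the joining distance was read from the same list. With only peaks of a fold enrichment of at least 10, 33 of the 396 clusters still held 5 joined peaks, among them Megf6 with 9 and Col4a2 with 10, while Zfpm1 was reduced to 1. With the 50% of peaks with the highest scores, 90 still did. A joining distance of 5 kb left 45, in which Ulk4, Shb, Wdr25, Med25 and Col2a1 kept all their peaks and Megf6 kept 11 of 15. Without summits in coding exons 317 remained, and Col4a2 fell from 12 to 2 joined peaks.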

How the data were processed

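Reads of the 3HA-Rfx6 library (49443917, of 50 bases) and of the control (16911298) were mapped to mm9 and peaks were called by the authors with MACS 1.4.2 (p-value cutoff 1e-05, at most 1 read per position, leaving 33949757 and 3567375). The submitters' processing notes name CASAVA 1.8.2 and Bowtie. The deposited list gives for each peak a read count without normalization, a fold enrichment (a ratio to the background expected from the control), a score (minus 10 times the log10 of its p-value) and a false discovery rate in percent, both as the authors obtained them. The lowest count in the list was 24, and the control was shallower than the ChIP library by a factor of 9.52 in kept reads, which limits the precision of the fold enrichment.

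Summits were placed at start plus summit offset minus 1 and compared with the NCBIM37 genome and GENCODE M1 (Python 3.11.15, numpy 2.4.6, pandas 2.3.3, scipy 1.17.1, matplotlib 3.10.9). No peak went beyond a chromosome end. Classes were assigned in the order promoter (within 1 kb of a protein-coding transcript start), coding exon, other exon, intron, intergenic. A gene was overlapped where it met the stretch from the first peak's start to the last peak's end. Exons were numbered on the longest protein-coding transcript. Motifs were searched in 200 bases at summits and 1 kb to the right. Named clusters were the 15 with the most peaks, the 10 with the most reads, the 5 with the most X-box peaks, the 5 densest of at least 6 peaks, and those overlapping a listed gene, of which 1 is not reported here. The clusters, lists and motifs were chosen with earlier results of these data known. The joining and motif search were tested on simulated data. Alternatives were other joining distances, sizes, peak sets, windows and annotations. With 1 library per condition, no test was made.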

Additional observations from a re-analysis of the deposited data

How the results depend on the processing

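The number of clusters, 396, changed with the joining rule and with the peaks used. It was 45 (269 peaks) at 5 kb, 885 (6773 peaks) at 25 kb, 768 (4003) with 4 peaks required and 217 (1620) with 6. It was 33 (192) with a fold enrichment of at least 10 and 91 (520) with the 50% highest scores. The share of genes overlapped was 0.228, 8.24, 4.15, 1.498, 0.206 and 0.599% under these settings in turn, 1.76% without coding exon summits and 3.11% with 10 kb added to each side of a gene. Coding exon summits made up 9.29% at 5 kb, 10.9% at fold 10, 9.81% for the highest scores and, by construction, 0% without them. Summits within 1 kb of a start made up 16.1% at 25 kb, 9.90% at fold 10, 11.7% without coding summits and 31.9% with a limit of 5 kb. Median reads were 94 at 5 kb, 82 at 25 kb, 169 at fold 10 and 139 for the highest scores. Strict X-boxes were found in 3.34% of members in 100 bases and relaxed ones in 42.2%, and under the other 8 settings the share stayed within the main interval. Peak centres in place of summits gave 392 clusters with 2491 peaks. An FDR of at most 1% left 10 peaks and no cluster. This limit is not one of peak strength, since strong peaks could have a high deposited FDR. On Rfx2 it was 25.29% for the peak of 469 reads and 1.88% for that of 42 reads. On Col4a2 it was 25.29% for the peak of 600 reads and 1.8% for that of 60 reads. Leaving out Gm20388 was added after seeing the data. No paired analysis was possible because each condition had a single library, which also leaves no replicate to omit. Depth limits weak peaks most, since the list starts at 24 reads.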
